A study of Mus musculus with 7 samples.

Results

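Fos, Fosb, Jun, Junb, Egr1, Atf3, Ier2, Dusp1, Zfp36 and Hspa1a are 10 immediate early and stress genes that are widely used to follow acute stimulation of cells and the stress of taking tissue apart. They were taken by name, and not by a cut on their measured values, from the 30879 genes of a single-cell table of the mouse thyroid. The choice was made with earlier results of these data known. The table holds SORT-seq data, in which live cells are sorted 1 to a well of 384-well plates and each captured molecule carries a unique molecular identifier (UMI). All samples came from untreated adult wild-type C57BL/6 mice. There were 2 samples of primary thyroid tissue, 3 of late passage thyroid follicular cell organoids (TFCOs) and 2 of early passage TFCOs, the organoids having been derived from female mice, and no age beyond adult is given in the sources used here. The tissue was digested with collagenase for 25 to 30 min at body temperature, whereas TFCOs were freed from their matrix in Cell Recovery solution for 30 min. Both were then dissociated with TrypLE that had been preheated to body temperature. TFCOs had grown in a medium with 1 µM forskolin, which raises cAMP, 500 ng/mL EGF and 100 ng/mL FGF10. The 2 kinds of sample therefore differ in culture, stimulation and dissociation at once, and these cannot be told apart in any comparison between them. The series describes the samples as biological replicates but does not say whether they came from separate animals or organoid lines, so p values measure the spread between these samples only, which may be technical.

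Immediate early genes are transcribed within minutes of a stimulus, from promoters that growth factor signals reach through kinase cascades and serum response factor, and that cAMP reaches through CREB. Fos and Jun family proteins pair up as the AP-1 transcription factor, Egr1 is a zinc finger factor of the same first wave, and Atf3 is a stress-induced factor of the ATF/CREB family. Dusp1, a phosphatase of MAP kinases, and Zfp36, which marks AU-rich transcripts for decay, are induced with them and limit the response. Hspa1a encodes an inducible Hsp70 chaperone under heat shock factor. In the thyroid follicular cell (TFC), thyroid-stimulating hormone acts largely through cAMP, and warm enzymatic digestion is known to switch many of these genes on in freshly isolated cells of many tissues.

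Of 2590 deposited cells, 2035 held at least 1000 UMIs and were used. Total depth ranged from 1406925 to 4703472 UMIs per sample. The cells were classed by marker genes as TFC-like (103 tissue cells and 1448 TFCO cells), endothelial-like (298), immune-like (57), mural-like (59) or stromal-like (22), with the members and the other gene lists below left out of the clustering. Among tissue TFC-like cells 12 of 16 TFC markers were detected in at least 10% of cells, and among TFCO cells 14 of 16. Of the endothelial-like cells, clusters of 41 and 90 cells had predicted genes such as Gm10800 among their leading genes. Tg was found in every cell of both and also in 100% of endothelial-like cells, at 22.1 and 38.6 UMIs per 10000 in the 2 tissue samples against 1609 and 1015 in TFC-like cells. Free RNA in the wells can give such a low level. No class here is known to lack the members, and the part of free RNA in their low UMI counts was not tested.

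**Figure D1:**
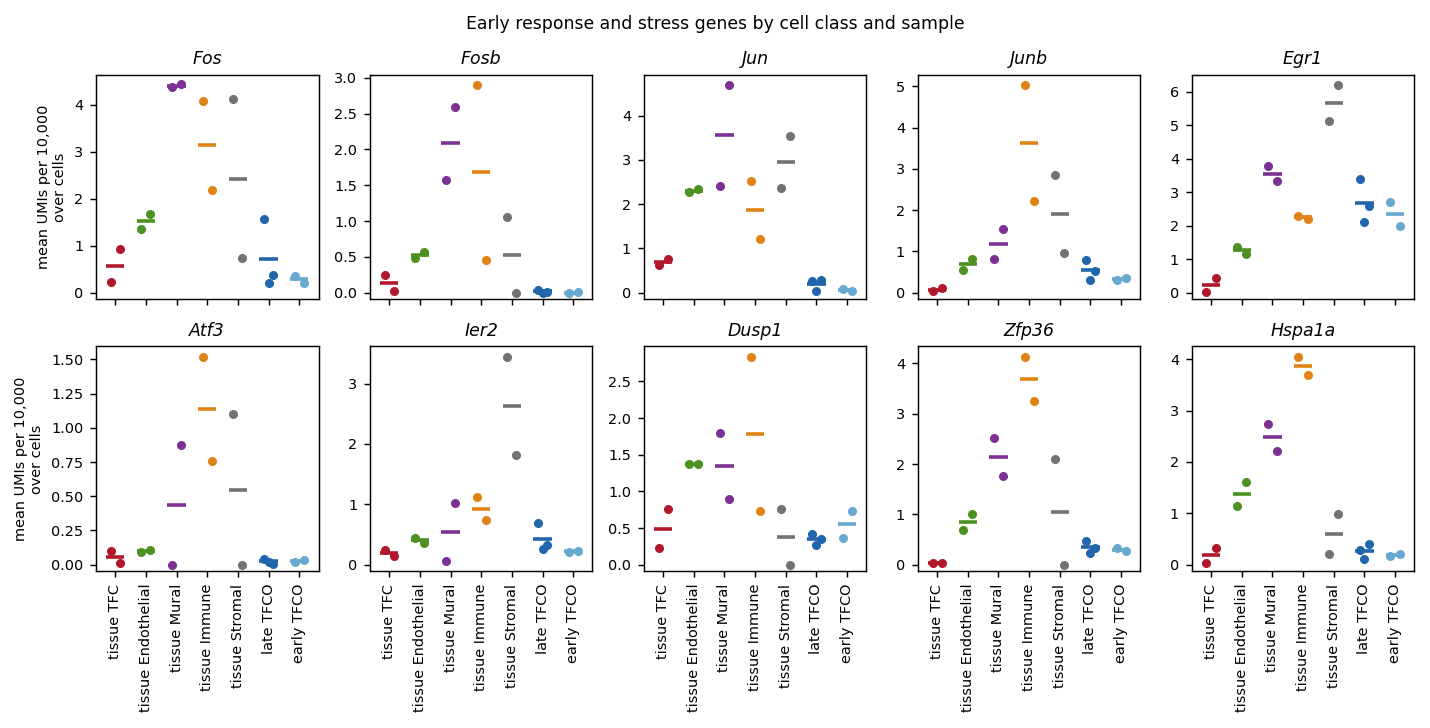
Mean level of each member, in UMIs per 10000 UMIs of a cell, averaged over the cells of a class. Each point is 1 sample and each bar is the mean of its group, with 2 tissue samples for every tissue class, 3 late and 2 early TFCO samples. Egr1 is higher in the 5 TFCO samples than in both tissue TFC-like means, and 7 members are lower in tissue TFC-like cells than in endothelial-like, mural-like and immune-like cells.

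The clearest difference between TFCOs and tissue TFC-like cells was in Egr1. Its mean was 3.40, 2.10 and 2.58 UMIs per 10000 in late samples 1 to 3 and 2.72 and 1.98 in early samples 1 and 2, against 0.0328 and 0.439 in the TFC-like cells of the tissue samples. All 5 TFCO samples lay above both tissue samples. Averaged over samples, TFCOs stood at 2.56 ± 0.565 (SD, n = 5) and tissue TFC-like cells at 0.236 ± 0.287 (SD, n = 2). On the log2(mean + 1) scale, which understates changes of low values, the difference was 1.52 (SE 0.25, adjusted p = 0.00279, limma with Benjamini-Hochberg adjustment over 4314 genes). This comparison called 22.2% of tested genes higher in TFCOs, 958 genes, with 277 lower and a median difference over all tested genes of 0.22. After centring on the median tested gene the split was 389 higher and 438 lower, and Egr1 differed by 1.33. Egr1 was the 1 called of the 2 members that reached the expression filter of 0.5 UMIs per 10000, which it did through its TFCO level, and with no filter its adjusted p was 0.0302. Its level in tissue sample 1 rests on 1 UMI in 48 cells.

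Fos, the other member above that filter, was not distinguishable between the groups. Its mean was 1.58, 0.216 and 0.388 UMIs per 10000 in the late samples, 0.357 and 0.209 in the early samples and 0.223 and 0.927 in tissue TFC-like cells. The 2 sets of values overlapped. The log2 difference was -0.09 with a 95% interval from -0.85 to 0.68 (adjusted p = 0.868, limma), an interval that leaves room for a difference in either direction.

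The other 8 members were expressed at a lower level, and 6 of them were tested with a filter of 0.1 UMIs per 10000, added after the data had been seen. There 12124 genes were tested and 6.9% called in either direction. Jun, the partner of Fos in AP-1, was lower in TFCOs, with 0.258, 0.0403 and 0.290 UMIs per 10000 in the late samples and 0.0899 and 0.0317 in the early samples against 0.624 and 0.761 in tissue TFC-like cells. Its log2 difference was -0.59 (SE 0.16, adjusted p = 0.0404, limma), and over the 21 alternatives tried the adjusted p ranged from 0.00269 to 0.124 and passed the threshold in 11. Without early sample 1 it was 0.0752 and without early sample 2 it was 0.0675. Groups that do not overlap in this direction occurred for 10.6% of the genes.

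Junb and Zfp36 lay in the opposite order. Junb, which can restrain AP-1, ranged from 0.317 to 0.792 UMIs per 10000 in TFCO samples and was 0.0356 and 0.116 in tissue TFC-like cells, a log2 difference of 0.41 (SE 0.18, adjusted p = 0.157). Zfp36 ranged from 0.235 to 0.472 in TFCOs and was 0.0356 and 0.0307 in tissue, a log2 difference of 0.35 (SE 0.13, adjusted p = 0.107). The tissue mean was 0.0756 for Junb and 0.0331 for Zfp36, so both passed the filter of 0.1 through their TFCO levels. In neither gene did the groups overlap, which was so in this direction for 35.5% of the genes, and neither passed the threshold in limma, though over 21 alternatives Junb passed in 2 and Zfp36 in 3. Dusp1 differed by -0.03, Ier2, a nuclear early response protein, by 0.14 and Hspa1a by 0.06 on the log2 scale, with adjusted p of 0.937, 0.644 and 0.822 (limma) and overlapping groups.

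Fosb and Atf3 stayed below both filters. In TFCOs Fosb gave 17 UMIs in 14 of 1448 TFC-like cells and Atf3 43 UMIs in 35 cells. Early sample 1 had no Fosb UMI in 234 cells, which allows a share of cells with a UMI of up to 1.28%. In tissue TFC-like cells Fosb gave 24 UMIs in 5 of 103 cells and Atf3 21 UMIs in 3 cells. Of these, 21 Fosb and 19 Atf3 UMIs came from the 2 deepest tissue cells, described below.

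Depth lay unevenly behind these values. Tissue TFC-like cells had median depths of 2331 and 1847 UMIs in the 2 samples, against 5179 to 12380.5 UMIs in the TFCO samples. In tissue sample 2, 2 cells of 268847 and 151110 UMIs, both TFC-like, held 90% of the 70 Egr1 UMIs, 91.9% of the 123 Fos UMIs, 94.8% of the 229 Jun UMIs and all 43 Zfp36 UMIs. Without them the 53 other cells held 49 UMIs of all 10 members, in 17 cells, and the 48 cells of tissue sample 1 held 26 UMIs, also in 17 cells. The deepest cell carried all 16 TFC markers along with 10 of 12 mural and 11 of 12 endothelial markers, and the next deepest 15 TFC and 11 endothelial markers. Levels averaged over cells give every cell the same weight, so leaving out both cells left the Egr1 difference at 1.53 (adjusted p = 0.00270, limma), while that of Jun went to -0.53 with adjusted p = 0.0571. With UMIs summed over the cells, which weights cells by depth, the Egr1 difference was 1.20 and no longer passed (adjusted p = 0.0782), and without the 2 deep cells it was 1.50 (adjusted p = 0.00502).

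**Figure D2:**
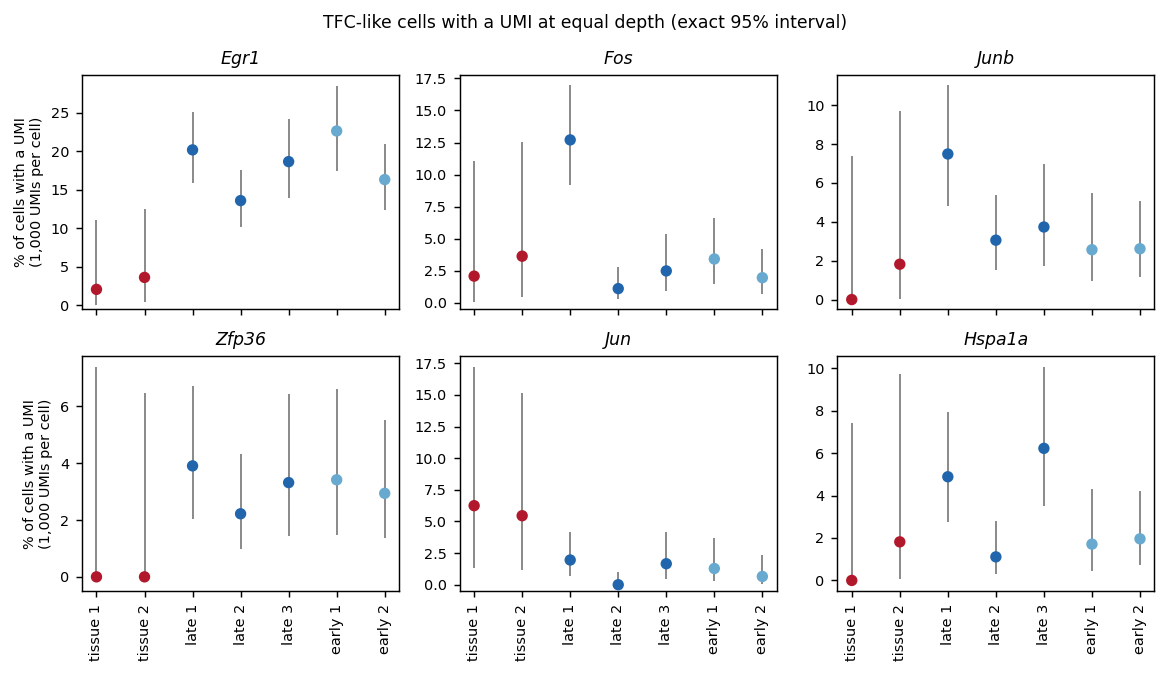
Percent of TFC-like cells with at least 1 UMI of a gene after every cell was thinned to 1000 UMIs, for each of the 7 samples. Bars are exact 95% binomial intervals, which cover counting error only. The Egr1 share is 2.08% and 3.64% in the tissue samples and 13.6% to 22.6% in the TFCO samples.

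At equal depth the order was similar. After thinning to 1000 UMIs per cell, Egr1 was found in 1 of 48 and 2 of 55 tissue TFC-like cells (2.08% and 3.64%) and in 20.2%, 13.6% and 18.7% of late and 22.6% and 16.3% of early TFCO cells. Before thinning the shares were 6.80% of tissue and 43.0% of TFCO cells. The exact intervals of tissue sample 1 (0.0527% to 11.1%) and of late sample 2, which had the lowest TFCO share (10.2% to 17.6%), overlapped. Fos was found in 12.7% of the cells of late sample 1 and in 1.11% to 3.42% of those of the other 4 TFCO samples, with 2.08% and 3.64% in tissue. Jun was found in 6.25% and 5.45% of tissue TFC-like cells and in 0% to 1.95% of TFCO cells. Zfp36 was found in no tissue TFC-like cell of 48 and 55, which allows up to 6.25% and 5.45%, and in 2.22% to 3.91% of TFCO cells, so its difference was not detectable at this depth.

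**Figure D3:**
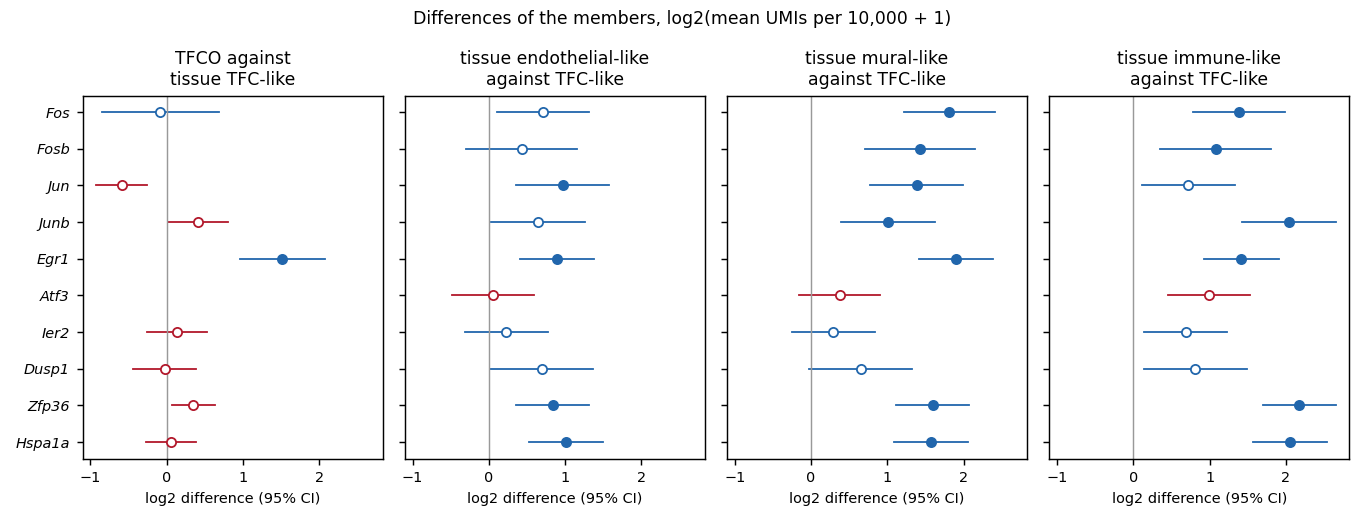
Difference of each member on the log2(mean UMIs per 10000 + 1) scale with its 95% interval from limma, for TFCOs and for 3 tissue classes, each against tissue TFC-like cells. Blue marks the filter of 0.5 and red the lower filter of 0.1 UMIs per 10000, and filled points passed an adjusted p of 0.05 at the filter of 0.5. Jun in TFCOs and Atf3 in immune-like cells are drawn open, and passed at the lower filter only. Members under both filters are not drawn. Egr1 is the filled point at 1.52 for TFCOs, and 7 points are filled for mural-like cells.

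Between late and early TFCOs none of the members differed beyond the spread between samples. Neither Fos nor Egr1 had an unadjusted p under 0.05, and 1 of 4314 tested genes was called (0.0232%). The log2 difference, late minus early, was 0.35 for Fos (SE 0.25, adjusted p = 0.423) and 0.13 for Egr1 (SE 0.18, adjusted p = 0.688, limma). Late sample 1 had the highest mean among the 5 TFCO samples for Fos, Junb, Egr1, Ier2, Zfp36, Fosb and Atf3. The other 2 late samples lay within or near the range of the early samples for Fos, at 0.216 and 0.388 UMIs per 10000 against 0.357 and 0.209. Ier2 was higher in every late than in every early sample (0.698, 0.263 and 0.322 against 0.215 and 0.225), a pattern seen in 14.9% of the 12124 genes, and its adjusted p was 0.284. Dusp1 was highest in early sample 2, at 0.735 UMIs per 10000 against 0.273 to 0.412 in the other 4 TFCO samples.

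Within the tissue, most members were lower in TFC-like cells than in endothelial-like, mural-like and immune-like cells. For 7 of the 10 (Fos, Fosb, Jun, Junb, Egr1, Zfp36 and Hspa1a) both TFC-like means lay below all 6 endothelial-like, mural-like and immune-like means, as they did for 14.2% of 12861 genes. Dusp1, Ier2 and Atf3 were the exceptions. Stromal-like cells, 15 and 7 in the 2 samples, were too few for the fit. They had the highest Egr1 of the tissue classes named here, at 5.13 and 6.20 UMIs per 10000, but in sample 2 they had no UMI of Fosb, Atf3, Dusp1 or Zfp36 and a Fos mean of 0.732 against 0.927 in TFC-like cells. With them included, 5 members were lowest in stromal-like and 5 in TFC-like cells of sample 2, and 8 were lowest in TFC-like and 2 in mural-like cells of sample 1. Of the 9 members above the filter of 0.5 UMIs per 10000, which was set on the mean over all classes, all but Fos and Jun lay below 0.5 in TFC-like cells and passed through the other classes. The counts of members below therefore describe these genes and are not evidence of a direction. The classes also differed in RNA content. Mitochondrial transcripts made up 9.82% and 5.87% of UMIs in TFC-like cells and 1.27% to 2.34% in these other classes, Tg stood at 1609 and 1015 UMIs per 10000 against 18.8 to 38.6, and Malat1 stood at 8.70 and 27.3 UMIs per 10000 against 30.1 to 130.8. Their part in the differences was not tested. With values scaled without mitochondrial genes and Tg the counts of called members below were 4, 7 and 6.

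Mural-like cells, the pericytes and smooth muscle around vessels, had the highest Fos. Its mean was 4.36 and 4.43 UMIs per 10000 in the 2 tissue samples, against 0.223 and 0.927 in TFC-like cells, and the log2 difference was 1.81 (SE 0.28, adjusted p = 2.99e-04, limma with a sample block). Egr1 stood at 3.79 and 3.33 UMIs per 10000 against 0.0328 and 0.439, a log2 difference of 1.90 (SE 0.23, adjusted p = 3.45e-05). Jun was at 2.41 and 4.69, Fosb at 1.58 and 2.60, Junb at 0.820 and 1.55, Zfp36 at 2.52 and 1.76 and Hspa1a at 2.74 and 2.22 UMIs per 10000, and each was higher than in both TFC-like means. Of the 9 members above the filter, 7 were called higher in mural-like cells and none lower, while 20.5% of the 4587 genes tested were higher. With no filter 3 of the 10 were called, Egr1, Zfp36 and Hspa1a. With UMIs summed over cells the calls of Jun (0.78, adjusted p = 0.232) and Junb (0.54, adjusted p = 0.253) ended. Over all genes 940 were higher and 320 lower, and 555 and 583 after centring on the median gene, where 6 members were called. Dusp1 and Ier2 did not pass, and Ier2 overlapped between the classes.

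Immune-like cells had the highest Junb, Zfp36 and Hspa1a. Zfp36 was at 4.13 and 3.26 UMIs per 10000, against 0.0356 and 0.0307 in TFC-like cells (log2 difference 2.18, SE 0.22, adjusted p = 8.63e-06, limma). Hspa1a was at 4.05 and 3.69, against 0.0356 and 0.324 (2.05, SE 0.23, adjusted p = 1.70e-05). Junb was at 5.03 and 2.22, against 0.0356 and 0.116 (2.04, SE 0.29, adjusted p = 1.58e-04). Fos, Fosb and Egr1 rose as well, so that 6 of 9 members were called higher and none lower, against 19.8% of tested genes higher (910 higher and 398 lower, and 646 and 616 after centring). With no filter 3 were called, Egr1, Zfp36 and Hspa1a. With UMIs summed over cells the calls of Fos (1.02, adjusted p = 0.0778) and Egr1 (0.86, adjusted p = 0.0830) ended. Taken in 1 tissue sample at a time, the difference was 0.72 and 2.05 for Fos and 0.51 and 1.65 for Fosb. Atf3, tested at the lower filter where 10.3% of genes were higher, stood at 1.52 and 0.759 UMIs per 10000 against 0.102 and 0.0128, a log2 difference of 0.99 (SE 0.25, adjusted p = 0.0141). Its mean was 0.0572 in TFC-like and 0.0996 in endothelial-like cells, so it passed that filter through the mural-like and immune-like classes. With no filter its adjusted p was 0.286 (limma). The immune-like comparison was added after the data had been seen, and all 3 tissue comparisons share the TFC-like samples.

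Endothelial-like cells had fewer members called than mural-like or immune-like cells, but their levels were not always lower. Their mean Jun was 2.30 UMIs per 10000, against 1.87 in immune-like cells. Jun was at 2.27 and 2.34 UMIs per 10000 against 0.624 and 0.761 in TFC-like cells (log2 difference 0.97, SE 0.28, adjusted p = 0.0242, limma), and Hspa1a at 1.15 and 1.60 against 0.0356 and 0.324 (1.01, SE 0.23, adjusted p = 0.00498). Egr1 (1.36 and 1.16) and Zfp36 (0.694 and 1.01) also rose, so 4 of 9 members passed, all higher, against 18% of tested genes higher (827 higher and 322 lower, and 522 and 517 after centring, where 3 members passed). Fos, at 1.36 and 1.67 UMIs per 10000, was above both TFC-like means but did not pass (0.71, SE 0.28, adjusted p = 0.0805), nor did Junb, Dusp1, Fosb and Ier2. With UMIs summed over cells none of the 4 calls held, and with both deep TFC-like cells left out of the sums 5 members passed. Whether the classes respond differently to stimulation or to dissociation cannot be told from levels measured once.

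The members were unevenly spread over the cells of a class. In the 2 tissue samples the 10% of endothelial-like cells with the highest summed level of the 10 members held 61.3% and 55.9% of that level. The median immune-like cell held 8.28 and 11.5 UMIs per 10000 of all members together, and the median mural-like cell 7.52 and 7.89. The median endothelial-like cell held 3.08 and 4.72, and the median tissue TFC-like cell 0. In TFCO samples the median TFC-like cell held 1.30 to 4.49. These medians depend on depth. It was 2331 and 1847 UMIs in tissue TFC-like cells, 6307 and 5849.5 in immune-like cells and 5179 to 12380.5 in TFCO samples. After thinning to 1000 UMIs, 14.6% and 21.8% of tissue TFC-like cells and 23.1% to 43.0% of TFCO cells held any member. The shares were 36.2% and 45.9% in endothelial-like, 46.7% and 55.2% in mural-like and 48.5% and 66.7% in immune-like cells. Egr1 was found in 33.3% to 53.4% of TFCO cells, with a median of 2 to 4 UMIs in those cells and up to 43 UMIs in 1 cell, and the 10% of cells with the most held 48.5% to 67.3% of its level.

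Other early response genes were counted over a list of 46 genes in the table. In TFCOs against tissue TFC-like cells, 5 of 12 tested rose, 1 fell and 6 did not pass, where 22.2% of all tested genes were higher. Their median log2 difference was 0.56, against 0.22 over all tested genes. The filter was set on the mean over all groups, or over all classes in the tissue. Genes of this list and of those below could therefore pass through the groups where they are high. Errfi1, Btg1, Ifrd1, Areg and Tent5a lay below 0.5 UMIs per 10000 in both tissue TFC-like means. Counts and medians of the lists describe these genes and are not evidence of a direction. Dusp2, another MAP kinase phosphatase, was at 1.37 to 5.02 UMIs per 10000 in TFCOs and 0 and 0.803 in tissue TFC-like cells (1.51, SE 0.48, adjusted p = 0.0371, limma). Errfi1, a feedback inhibitor of the EGF receptor, rose by 1.08 (SE 0.27), Btg1, which restrains growth, by 0.66 (SE 0.16) and Ifrd1 by 0.57 (SE 0.14). Nfkbiz, an inducible regulator of NF-kappaB, fell by 1.63 (SE 0.19, adjusted p = 3.71e-04), from 3.82 and 4.28 UMIs per 10000 in tissue to 0.380 to 0.799 in TFCOs. Its counts followed the well barcode, with a correlation of 0.48 between TFCO cells of different samples that share a barcode, where genes above 0.05 were kept out of the clustering, and the part of this in its difference was not tested. In the tissue 20 genes of this list were tested: 6 rose and 2 fell in endothelial-like cells, 7 rose and 1 fell in mural-like cells, and 8 rose and 1 fell in immune-like cells. Over all tested genes the shares higher were 18%, 20.5% and 19.8%. Plk2, a stress-inducible kinase, led in endothelial-like cells (1.74), Rhob, an early induced small GTPase (1.79), in mural-like cells and Mcl1, a survival factor (1.51), in immune-like cells.

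Of 11 cAMP-responsive early genes in the table, 5 were tested in TFCOs against tissue and 2 rose, where 22.2% of all tested genes were higher. Areg, a ligand of the EGF receptor, was at 0.790 to 1.86 UMIs per 10000 in TFCOs and 0 and 0.138 in tissue TFC-like cells (0.98, SE 0.22, adjusted p = 0.00912, limma), and Tent5a, a poly(A) polymerase, rose by 0.82 (SE 0.20) and had a barcode correlation of 0.062, also above 0.05. The other 3 did not pass. Among tissue classes 3 of these genes were tested. In endothelial-like and in mural-like cells 3 rose, and in immune-like cells 2. Over all tested genes the shares higher were 18%, 20.5% and 19.8%. The nuclear receptor Nr4a1 rose in endothelial-like (1.44), mural-like (0.80) and immune-like cells (0.78), with adjusted p of 0.00162, 0.0432 and 0.0468 (limma). Pde4d rose by 0.70 in endothelial-like and 1.17 in mural-like cells. Pde4b rose by 0.68, 1.09 and 0.78 in endothelial-like, mural-like and immune-like cells. The barcode correlations of Pde4d (0.10) and Pde4b (0.080) were above 0.05.

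Heat shock genes, 23 in the table, did not move as one group. In TFCOs 3 of 12 tested rose (Hspe1 by 0.80, Dnaja1 by 0.75 and Cacybp by 0.61 on the log2 scale), none fell and 9 did not pass, a share near the 22.2% of all tested genes that were higher. Their median of 0.28 was near the 0.22 of all genes. In endothelial-like cells 4 rose and 2 fell, with Hspb1, a small heat shock protein of vessels and muscle, higher by 2.02 (SE 0.27) and Cryab, of the same family, at -1.14 (SE 0.19). Mural-like cells had 4 higher and none lower, and immune-like cells 2 higher and 1 lower, with 12 tested in each class. Over all tested genes 18%, 20.5% and 19.8% were higher in endothelial-like, mural-like and immune-like cells. Hspa1b, the neighbour and near twin of Hspa1a in protein sequence, rose in all 3 classes, by 0.85, 1.06 and 2.19, beside 1.01, 1.57 and 2.05 for Hspa1a. Near the 3′ end, which CEL-seq2 reads, 0 of 451 words of 50 bases in the last 500 bases of either transcript occurred in another gene's transcripts. Their totals in TFCOs differed, with 318 UMIs of Hspa1a and 722 of Hspa1b in the same cells. Of 18 upstream kinases and factors in the table, 10 were tested in the tissue classes and none fell. In endothelial-like cells 2 rose, Elk3, a partner of serum response factor (1.99, SE 0.23), and Mrtfb, a coactivator of the same factor (1.28, SE 0.22), and in mural-like and immune-like cells 3 rose in each. These shares of 10 are near the 18%, 20.5% and 19.8% of all tested genes.

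**Figure D4:**
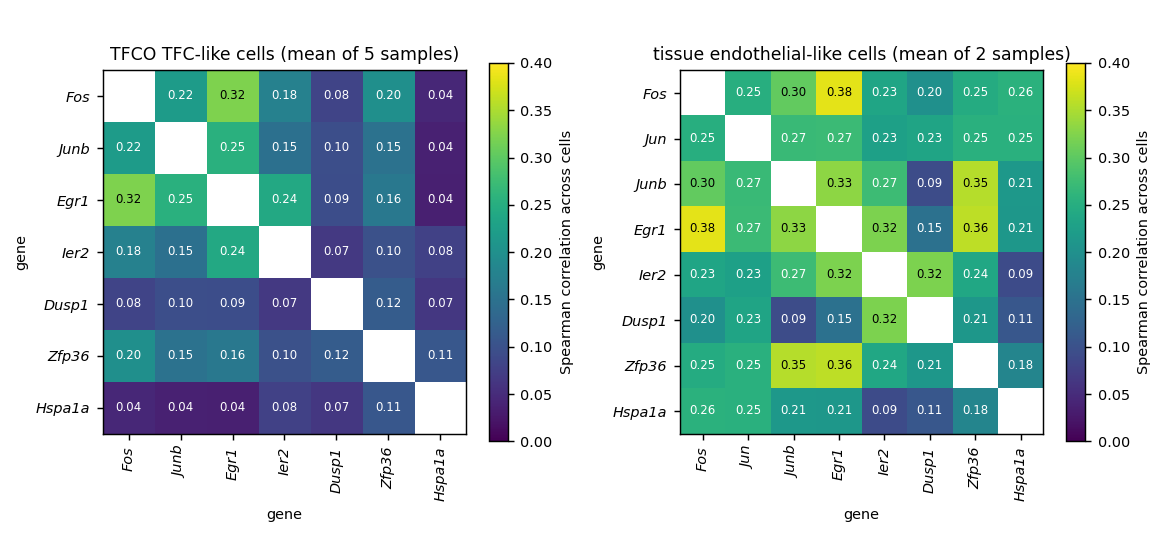
Mean within-sample Spearman correlation across cells between pairs of members, in TFC-like cells of 5 TFCO samples and endothelial-like cells of 2 tissue samples, for members found in enough cells. Colour and printed values give the correlation. Fos and Egr1 form the highest pair in both, at 0.32 and 0.38, and Hspa1a the lowest row in TFCOs.

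Across the cells of a TFCO sample, Fos and Egr1 went together most. Their Spearman correlation was 0.32 on average over 5 samples (0.29 to 0.36), and that of Egr1 with Junb was 0.25 and with Ier2 0.24. Hspa1a stood apart, with correlations of 0.04 with Fos, Junb and Egr1 and 0.11 with Zfp36, the highest of its pairs. In endothelial-like cells of the tissue Hspa1a ranged from 0.09 with Ier2 and 0.11 with Dusp1 to 0.25 with Jun and 0.26 with Fos. Fos with Egr1 was at 0.38 there (0.30 to 0.47 in 2 samples). Jun was found in too few TFCO cells for its pairs to be compared. Cells of a sample share a plate and differ in depth, and at these counts a weak correlation shows little. Among 10619 genes compared by within-sample Pearson correlation in TFCO cells, the 5 most like Fos were Egr1 (0.33), Zfp36 (0.21), Dusp2 (0.20), Btg2 (0.18) and Junb (0.18), all early response genes of the lists used here. For Jun the highest was Nsmf at 0.15 (-0.0024 to 0.30 over samples) and for Hspa1a it was App at 0.12.

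Egr1 was present in all TFCO clusters. Its mean per cluster ranged from 0.988 UMIs per 10000, in 132 cells of median depth 2620.5 of which 120 came from early sample 2, to 3.35. The 2 clusters led by cell cycle genes stood at 2.68 and 2.70. Within samples, cycling cells were above the other cells for Egr1 in 3 of 5 samples, and below them for Fos in 5 of 5 (for example 0.933 against 1.61 UMIs per 10000 in late sample 1, with 15 cycling cells) and for Hspa1a in 5 of 5. These groups hold 10 to 53 cycling cells a sample and share their wells' libraries, so no test was made. Several of the Fos and Hspa1a means in cycling cells rest on 1 UMI or none.

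Promoter sequences were read for 8 of the 10 members from the RefSeq table for GRCm38.p6, the build named in the submitters' processing notes. Egr1 and Ier2 had no entry there, so their promoters were not searched. The 250 bases before the RefSeq start of 4 members are shown because together they hold every kind of element that was found in a member, and capitals mark the matches found.
Fos (chr12:85473640-85473889, plus strand): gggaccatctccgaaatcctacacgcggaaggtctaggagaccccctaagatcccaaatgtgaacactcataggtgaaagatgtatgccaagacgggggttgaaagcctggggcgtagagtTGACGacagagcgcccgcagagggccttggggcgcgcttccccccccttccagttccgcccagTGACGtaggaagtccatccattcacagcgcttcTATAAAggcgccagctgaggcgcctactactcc
Dusp1 (chr17:26508473-26508722, minus strand): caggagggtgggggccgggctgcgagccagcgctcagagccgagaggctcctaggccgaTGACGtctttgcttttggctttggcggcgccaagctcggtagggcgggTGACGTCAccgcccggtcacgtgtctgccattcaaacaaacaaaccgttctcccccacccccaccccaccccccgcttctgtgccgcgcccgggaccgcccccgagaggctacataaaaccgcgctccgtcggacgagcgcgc
Zfp36 (chr7:28379229-28379478, minus strand): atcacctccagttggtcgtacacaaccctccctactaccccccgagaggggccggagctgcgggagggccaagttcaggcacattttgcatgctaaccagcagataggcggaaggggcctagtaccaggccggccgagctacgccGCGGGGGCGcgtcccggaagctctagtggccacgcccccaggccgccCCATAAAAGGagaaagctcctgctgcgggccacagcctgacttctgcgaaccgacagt
Hspa1a (chr17:34972157-34972406, minus strand): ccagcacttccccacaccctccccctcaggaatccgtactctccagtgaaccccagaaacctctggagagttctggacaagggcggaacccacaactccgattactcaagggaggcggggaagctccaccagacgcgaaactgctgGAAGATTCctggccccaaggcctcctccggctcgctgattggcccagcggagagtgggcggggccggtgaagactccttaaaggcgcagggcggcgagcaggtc
Fos holds the core cAMP response element TGACG at 129 and 66 bases before the start and TATAAA at 33. Dusp1 holds the full element TGACGTCA at 143, which contains the core on both strands, and 1 further core at 191. Zfp36 holds a CArG box, the element that serum response factor binds, at 58 bases and GCGGGGGCG, a match to the EGR element, at 105. Hspa1a holds GAAGATTC, a match to the heat shock element, at 104.

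Searched on both strands over all 32851 promoter windows of this length, the core element TGACG was in 17.8% and in 5 of the 8 members (Fos, Fosb, Junb, Atf3 and Dusp1). The full element was in 1.55% and in Dusp1 alone of the 8, and the CArG box in 1.47% and in Zfp36 alone. The EGR element GCGNGGGCG was in 4.7% and in Fosb and Zfp36, and the heat shock element GAANNTTC in 6.69% and in Jun and Hspa1a. The AP-1 element TGANTCA was in 6.75% and in none of the 8. TATAAA, searched on the sense strand only, was in 7.59% and in Fos. A match is a stretch of letters and not a measured site, and these windows leave out elements farther upstream.

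Jun, Junb, Atf3, Dusp1, Zfp36 and Hspa1a overlap annotated genes on the opposite strand. Protein-coding genes are among them for Junb (Prdx2), Dusp1 (Ergic1) and Hspa1a (Gm20481). Dusp1 also overlaps a pseudogene and an intronic transcript on its own strand. The sources used here do not say whether counting used the strand, so reads of these pairs may not be fully separated, whereas Fos, Fosb, Egr1 and Ier2 overlap no annotated gene.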

How the data were processed

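Single-cell RNA was measured by SORT-seq, with CEL-seq2 chemistry, in 7 samples of mouse thyroid tissue and TFCOs, grouped by the tissue and passage stage in the labels. The submitters' processing notes name Trim Galore 0.4.3, STAR 2.5.3a, Seurat and GRCm38. The authors deposited natural log values of 1 plus UMIs per 10000 for 30879 genes and 2590 cells. Dividing each cell by its smallest value gave whole UMIs for 100% of non-zero values within 0.01. All 384 well barcodes occur in more than 1 sample, since plates share the barcode set. No doublets were called. Cells of TFC-like clusters that scored higher for C cell, parathyroid or erythroid markers than for TFC markers were set aside.

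Tissue and TFCO cells of at least 1000 UMIs were clustered separately (scanpy 1.11.5, Leiden at resolution 1, 30 components), without genes that followed the well barcode. A cluster took the name with the highest marker score provided that 10% of its cells held each of 3 or more of them. Leading genes were first taken within each set, which left 1 TFCO cluster of 264 cells unnamed with Fos among its leading genes, and were then taken against all other cells. That rule was changed after the clusters had been seen.

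Values were averaged over the cells of a sample and class, and log2(mean + 1) was tested with limma 3.58.1 (trended, Benjamini-Hochberg, threshold 0.05). TFCO, early and late groups were fitted together with estimated weights for tissue (0.461) and TFCO samples (1.36). Tissue classes were fitted with a sample block. Genes had a mean of at least 0.5, or 0.1 for low members. The fits were tested on simulated data. Intervals of shares are exact (Clopper-Pearson, 95%). A count of 0 is given the limit of 3 counts.

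The members and lists were chosen with earlier results of these data known. All 10 members are named. From every other list, at most 4 genes that rose and 4 that fell with the largest difference are named per comparison. Listed genes under older symbols were matched through RefSeq synonyms. The result of the upstream list for TFCOs is not reported here.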

Additional observations from a re-analysis of the deposited data

How the results depend on the processing

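Alternatives were run for the 4 comparisons planned and for the immune-like comparison added later. Genes called for TFCOs against tissue (1235) became 702 with cells of at least 2000 UMIs, 161 with UMIs summed over cells, 698 after thinning, 1930 with equal weights, 343 with a filter of 2, 807 with no filter, and 899 to 1849 with 1 sample left out. The member count of 1 became 0 with summed UMIs and with the filter of 2, which no member passed, 2 with the filter of 0.1, and stayed 1 with any sample left out. For late against early TFCOs the 1 gene called became 2 at the filter of 0.1 and 1 to 305 with 1 sample left out (305 without early replicate 1), and no member was called under any setting. Genes called in endothelial-like, mural-like and immune-like cells (1149, 1260 and 1308) became 459, 552 and 666 after thinning, 332, 326 and 340 with the filter of 2, and 524, 445 and 621 with no filter. Members called in endothelial-like cells (4) became 0 with summed UMIs, 1 after thinning, 2 with all variable genes in the clustering, 2 with the filter of 2 and 0 with no filter. Those in mural-like (7) and immune-like cells (6) became 2 with the filter of 2, where 2 members were tested, and 3 with no filter. With fewer or more genes tested the adjustment itself changes. The cause of the other changes was not tested.

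Without the replicate block the members called in the tissue classes were 4, 7 and 6, as with it. The block there is the tissue sample itself. No paired analysis was possible for TFCOs against tissue or late against early TFCOs because replicate numbers there only name samples. With 1 tissue sample left out, tissue classes have no residual degrees of freedom and give values only.

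Signs that changed were all of differences that had not passed. For TFCOs against tissue they were Fos (-0.41 to 0.020 with 1 sample left out), Dusp1 (-0.29 to 0.24, and 0.0021 with classes from cell scores), Hspa1a (-0.12 to 0.24, -0.39 with summed UMIs and -0.048 when centred), Ier2 (-0.051 with cells of 2000 UMIs and -0.30 summed), Junb (-0.11 summed) and Zfp36 (-0.028 summed). For late against early TFCOs they were Egr1 (-0.016 thinned, -0.025 to 0.29 with 1 sample left out) and Zfp36 (-0.015 summed, with or without the deep cells, and -0.012 thinned, -0.010 to 0.12 with 1 left out). In tissue they were Atf3 in endothelial-like cells (-0.12 summed, -0.039 centred, -0.011 to 0.13 by sample) and in mural-like cells (-0.14 thinned, -0.14 to 0.89 by sample), Ier2 in endothelial-like (-0.19 summed) and mural-like cells (-0.14 summed, -0.24 to 0.82 by sample) and Dusp1 in immune-like cells (-0.022 to 1.65 by sample).

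Low counts and few tissue TFC-like cells limit the members. The TFC-like values of Egr1, Zfp36, Junb and Hspa1a in tissue sample 1 rest on 1 UMI each.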
